A study of Rattus norvegicus with 8 samples.

Results

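The choroid plexus epithelium is a sheet of cells that hangs into the brain ventricles, secretes cerebrospinal fluid and supplies it with carrier proteins. Its cells pass sodium, chloride, bicarbonate and water into the ventricle, and they are known for transthyretin, which carries thyroxine and binds retinol-binding protein. A strand of this tissue lies along the roof of the third ventricle, the ventricle injected in this study. The genes described here are 10 genes known for their expression in this epithelium (*Ttr*, *Folr1*, *Kcnj13*, *Clic6*, *Kl*, *Sostdc1*, *Otx2*, *Aqp1*, *Slc4a5* and *Enpp2*), out of 15159 genes with a named probe. They were picked because their retinoic acid (RA) over vehicle ratios were far below 0 on some of the arrays, so those ratios are given as a description, and where the counts of a fit over all probes include them, nothing is read from those counts.

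Male F344 rats held in short days received 5 μl of RA or of vehicle into the third ventricle, and hypothalamic blocks that included the arcuate nucleus, weighing 60 to 80 mg, were taken 24 hrs later. The RA concentration is 1e-04 M in the paper's methods and 1e-05 M in the labels, and the vehicle is 10% DMSO in 0.9% saline in the former and saline in the latter. According to the methods there were 4 rats in each group. RNA of an RA and of a vehicle sample was hybridised together on each of 8 two-colour Agilent arrays. RA was labelled with Cy5 on arrays 1, 3, 6 and 8 and with Cy3 on arrays 2, 4, 5 and 7. Arrays 1 to 4 formed the first row of the single slide and arrays 5 to 8 the second. According to the methods, samples were used again with the dyes exchanged, so the arrays are not independent of each other. Which arrays share RNA is not stated, and a spread over the arrays may in part be technical.

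Each array held 58717 spots that were not controls, for 30367 probes. The share marked well above background ran from 57.4% to 74.6% for RA RNA and from 61.2% to 74.5% for vehicle RNA. Each of the 10 genes had 1 probe. No spot of theirs was saturated, and both channels were well above background on all 8 arrays for 6 genes. The exceptions, as arrays out of 8 with RA and with vehicle RNA, were *Kl* (3 and 4), *Slc4a5* (5 and 3), *Clic6* (7 and 5) and *Sostdc1* (7 and 8). A log2 ratio is positive where the RA sample was brighter.

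The 10 genes were lower with RA than with vehicle on arrays 6 and 7. Most of them were higher, by a smaller amount, on most of the other 6 arrays. Their median log2 ratio was -1.37 on array 6 and -1.42 on array 7. It was 0.38, 0.27, 0.22, 0.05, 0.30 and 0.57 on arrays 1, 2, 3, 4, 5 and 8, whereas the median of all named genes lay between -0.01 and 0.01 on every array. Arrays 6 and 7 carry opposite dye orders, so the low values appeared once with RA in Cy5 and once with RA in Cy3. All 10 genes were below -0.5 on both arrays, as were 0.567% of the named genes. All 10 were below 0 there (29.7% of named genes) and lower there than on every other array (7.27% of named genes). These counts restate how the genes were chosen.

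**Figure D1:**
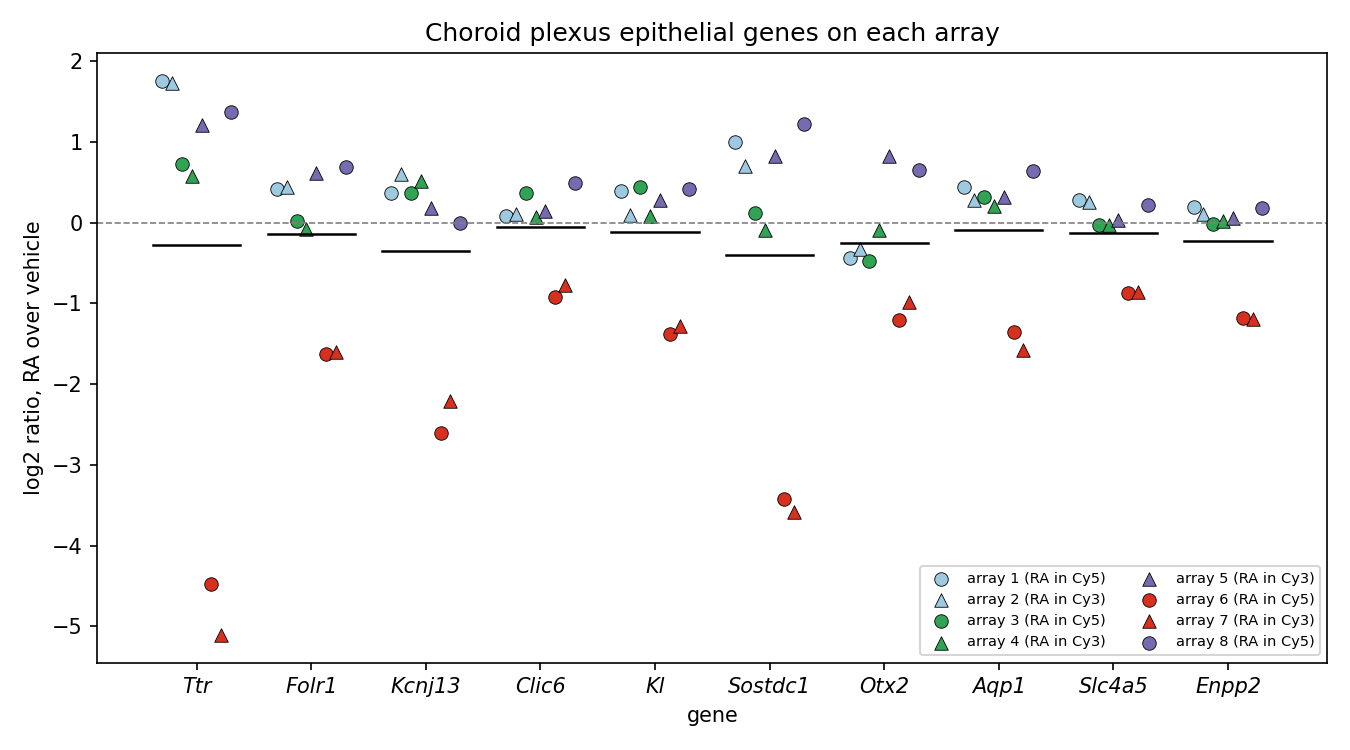
Log2 ratio of RA over vehicle for each of the 10 genes (vertical axis) on each of the 8 arrays, with circles for RA in Cy5, triangles for RA in Cy3 and a bar for the mean over 8 arrays. Colours join the arrays with the nearest values (1 and 2, 3 and 4, 5 and 8, 6 and 7), and the red points of arrays 6 and 7 lie below all others for every gene.

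Among the secreted products, *Ttr* had the widest values. With RA in Cy5 its log2 ratio was 1.76, 0.73, -4.48 and 1.37 on arrays 1, 3, 6 and 8, and with RA in Cy3 it was 1.74, 0.57, 1.21 and -5.11 on arrays 2, 4, 5 and 7. It was the lowest of the 15159 named genes on both arrays 6 and 7, and among the 139 highest on arrays 1 to 5 and 8. The mean of arrays 6 and 7 corresponded to a 27.7-fold lower level with RA. Over 8 arrays the mean was -0.28 ± 2.82 (SD, n = 8 arrays, not rats) and the 8 values lay on either side of it in separate sets.

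*Sostdc1*, a secreted inhibitor of BMP and Wnt signalling, followed *Ttr* in order. Its log2 ratio was 1.00, 0.12, -3.42 and 1.23 with RA in Cy5 (arrays 1, 3, 6 and 8) and 0.70, -0.09, 0.83 and -3.59 with RA in Cy3 (arrays 2, 4, 5 and 7). Its values were close to 0 on arrays 3 and 4, far below 0 on arrays 6 and 7 and well above 0 on the rest. *Enpp2* encodes autotaxin, the enzyme that makes lysophosphatidic acid, and is also known from oligodendrocytes and meninges. Its values were 0.19, -0.02, -1.17 and 0.19 with RA in Cy5 and 0.10, 0.03, 0.06 and -1.20 with RA in Cy3, in the same array order. Away from arrays 6 and 7 it stayed within 0.19 of 0.

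The receptors were *Folr1*, folate receptor alpha, which carries folate into cerebrospinal fluid, and *Kl*, klotho, a co-receptor of FGF23. *Folr1* had log2 ratios of 0.42, 0.02, -1.63 and 0.69 on arrays 1, 3, 6 and 8 and of 0.45, -0.08, 0.62 and -1.60 on arrays 2, 4, 5 and 7. *Kl* had 0.40, 0.44, -1.38 and 0.42 on the former and 0.10, 0.08, 0.29 and -1.27 on the latter. Both were lowest on arrays 6 and 7. On the other arrays the dye orders overlapped for *Folr1*, whereas every *Kl* value was higher with RA in Cy5 than with RA in Cy3. With RA RNA the *Kl* probe was not well above background on array 6 or 7, so the size of its difference there is uncertain.

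The water and ion pathways were represented by 4 genes. *Aqp1*, the apical water channel, gave 0.44, 0.32, -1.35 and 0.64 on arrays 1, 3, 6 and 8 and 0.28, 0.21, 0.32 and -1.57 on arrays 2, 4, 5 and 7. *Kcnj13*, the inward rectifier potassium channel Kir7.1, gave 0.36, 0.36, -2.61 and -0.001 on the former and 0.61, 0.51, 0.19 and -2.21 on the latter. *Kcnj13* differed from *Ttr* in that its highest ratios were on arrays 2 and 4 and its value on array 8 was near 0.

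*Clic6*, of the chloride intracellular channel family, gave 0.08, 0.36, -0.92 and 0.49 on arrays 1, 3, 6 and 8 and 0.11, 0.07, 0.15 and -0.78 on arrays 2, 4, 5 and 7. *Slc4a5*, the sodium bicarbonate cotransporter NBCe2, gave 0.28, -0.03, -0.88 and 0.22 on the former and 0.25, -0.03, 0.03 and -0.86 on the latter. These were the smallest differences of the 10 on arrays 6 and 7, 1.80-fold for *Clic6* and 1.83-fold for *Slc4a5*, and with RA RNA the *Slc4a5* probe was not well above background on array 7. The median spot signal with RA RNA on that array was 89 over a background of 70 for *Clic6* and 72.8 over 68.5 for *Slc4a5*. Both probes were thus dim, and the sizes of their differences are uncertain.

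*Otx2*, a homeodomain transcription factor that is also known from the thalamus, had the lowest median r with the other 9 over all 8 arrays (0.739), while over arrays 1 to 5 and 8 *Kcnj13* had the lowest (-0.613, against 0.202 for *Otx2*). Its log2 ratio was -0.44, -0.47, -1.20 and 0.65 on arrays 1, 3, 6 and 8 and -0.32, -0.09, 0.83 and -0.98 on arrays 2, 4, 5 and 7. It was above 0 on arrays 5 and 8 alone, where the other 9 genes had values from -0.001 to 1.37. On the same 2 arrays the median of 7 thalamic and habenular genes was 0.29 and 0.64, against -0.41 and -0.34 on arrays 6 and 7. Their part in the *Otx2* values was not tested.

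RefSeq promoter sequence of the GRCr8 build was given for 5 of the 10 genes. The 250 bases before the gene start are printed for the 3 that held a searched motif, with the match in capitals. The motifs were searched on both strands in all 33469 promoters given. TATAAA, the core of the TATA box, was found in *Aqp1* (chr4:85812534-85812783, plus strand) and *Kcnj13* (chr9:95518987-95519236, minus strand) and in 12.9% of all promoters. AGGTCA, the half-site of nuclear receptors such as those for RA, was found in *Slc4a5* (chr4:117283044-117283293, plus strand), on its opposite strand as TGACCT, and in 14.1% of all promoters.
Aqp1: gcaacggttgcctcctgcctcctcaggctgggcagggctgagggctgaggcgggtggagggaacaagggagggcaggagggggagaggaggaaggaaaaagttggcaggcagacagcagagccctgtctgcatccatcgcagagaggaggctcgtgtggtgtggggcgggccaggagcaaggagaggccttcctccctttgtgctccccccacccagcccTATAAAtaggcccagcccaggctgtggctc
Kcnj13: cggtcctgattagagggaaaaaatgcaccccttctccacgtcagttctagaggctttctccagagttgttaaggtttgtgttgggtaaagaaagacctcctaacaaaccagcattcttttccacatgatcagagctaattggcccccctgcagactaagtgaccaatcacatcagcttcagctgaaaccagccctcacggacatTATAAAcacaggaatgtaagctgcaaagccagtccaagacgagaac
Slc4a5: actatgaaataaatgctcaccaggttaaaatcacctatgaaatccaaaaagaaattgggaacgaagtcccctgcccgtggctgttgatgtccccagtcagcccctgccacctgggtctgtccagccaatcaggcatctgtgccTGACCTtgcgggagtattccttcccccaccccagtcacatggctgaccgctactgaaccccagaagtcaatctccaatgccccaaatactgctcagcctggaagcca
The letters TAATCC and TAAGCC, which OTX proteins are known to bind, were in none of the 5, against 6.34% and 7.81% of all promoters. A match is a string of letters and not a site known to be bound.

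The two-colour design also gives the level of each gene in the RA and in the vehicle sample separately. These levels are log2 intensities, scaled so that the average intensities of all arrays have the same distribution, and they are compared within a probe and not between genes. In a tissue block, fewer epithelial cells and less RNA per cell cannot be told apart.

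On arrays 6 and 7 the vehicle samples stood out more than the RA samples, relative to the mean of the other 6 arrays. The vehicle level of all 10 genes was higher on both of these arrays than on every other array, which holds for 6.18% of named genes. It was at least 0.25 higher for all 10, and for 0.917% of named genes. A low ratio goes with a high vehicle level, a low RA level or both. As the genes were picked for low ratios, these counts follow in part from that choice. Over the 10 genes the median difference from the mean of the other 6 arrays was 1.28 on array 6 and 1.39 on array 7 for vehicle. For RA it was -0.42 and -0.29. The corresponding medians over all named genes were all -0.03. As the mean of arrays 6 and 7, the vehicle difference of the 10 genes ran from 0.69 to 4.92. For each gene it was larger than the size of the RA difference, which ran from -1.38 to 0.01. The *Ttr* comparison depended on this baseline, as its levels were lowest on arrays 3 and 4. With those left out of the baseline, its RA mean was 16.28, against 12.73 on arrays 6 and 7. Its vehicle mean was 14.76, against 17.52, so its RA difference was then the larger. For *Sostdc1* the RA means were 9.44 and 7.22 and the vehicle means 8.50 and 10.73, nearly equal differences. For the remaining genes the vehicle difference stayed larger. The RA level on both arrays 6 and 7 was below every other array for 3 of the 10 genes, against 11.5% of named genes.

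The level of *Ttr* in vehicle samples was 14.51, 14.76, 8.19, 8.39, 14.10, 17.91, 17.14 and 15.67 on arrays 1 to 8. In RA samples it was 16.27, 16.49, 8.92, 8.96, 15.31, 13.43, 12.03 and 17.05. The highest and the lowest vehicle levels were thus on arrays 6 and 3, and the RA levels of arrays 6 and 7 lay between those of arrays 3 and 4 and those of the remaining arrays. Between the highest and the lowest of its 16 levels *Ttr* spanned 9.72, and 0 of 15156 genes spanned more.

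The difference was visible before any correction. On array 7 the median spot signal of *Ttr* was 278968 with vehicle RNA and 2729 with RA RNA, and on array 6 it was 230812 and 18509. On array 8 the RA signal, 226301, was the brighter one, against 32756 for vehicle. On array 3 the signals were only 805 for RA and 231 for vehicle, and on array 4 they were 322 and 389. The brighter channel on arrays 3 and 4 was the Cy5 channel in both, as it was brighter over all probes.

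*Sostdc1* had vehicle levels of 8.08, 8.03, 6.85, 7.02, 8.92, 10.57, 10.89 and 8.96 on arrays 1 to 8 and RA levels of 9.07, 8.74, 6.97, 6.92, 9.74, 7.14, 7.31 and 10.19. *Folr1* had vehicle levels of 8.55, 8.51, 8.12, 8.30, 9.18, 10.32, 10.25 and 8.91 and RA levels of 8.97, 8.96, 8.14, 8.22, 9.79, 8.68, 8.65 and 9.60. Both genes shared with *Ttr* that arrays 3 and 4 were lowest in either channel, which held for 3 of the 10 genes. In vehicle alone, arrays 3 and 4 were lowest for 7 of the 10, and the exceptions were *Otx2*, *Slc4a5* and *Enpp2*.

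*Enpp2* differed from these in its RA samples. Its vehicle level was 12.05, 12.24, 11.97, 11.76, 11.79, 13.36, 13.31 and 12.49 on arrays 1 to 8, and its RA level was 12.24, 12.34, 11.95, 11.79, 11.85, 12.19, 12.11 and 12.68. The RA levels of arrays 6 and 7 were thus in the middle of the RA range, and its low ratio there came from the vehicle channel. *Otx2* had vehicle levels of 9.38, 9.39, 9.27, 9.06, 9.23, 10.08, 10.02 and 8.996 and RA levels of 8.94, 9.07, 8.80, 8.97, 10.06, 8.88, 9.03 and 9.65. Its RA levels on arrays 5 and 8 stood above those of the other 6 arrays.

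**Figure D2:**
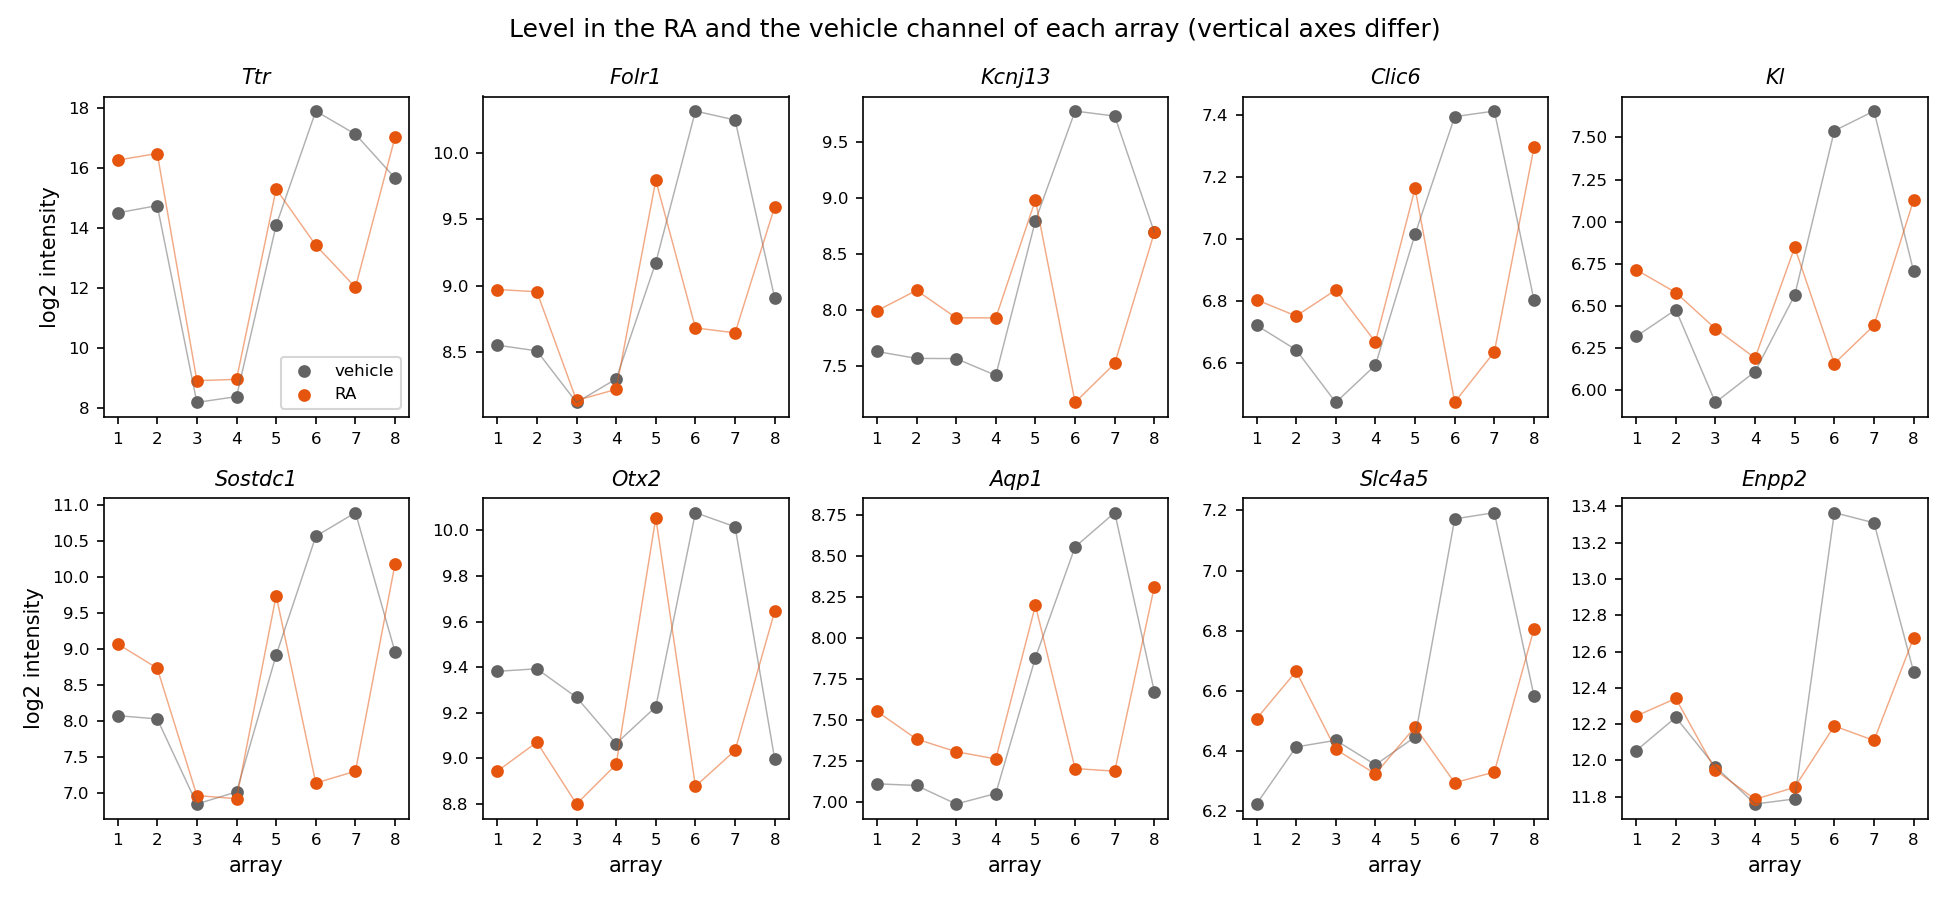
Log2 intensity of each of the 10 genes in the vehicle (grey) and RA (orange) sample of arrays 1 to 8, with lines only to guide the eye and a separate vertical scale per gene. The grey points of arrays 6 and 7 are the 2 highest vehicle points in every panel.

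Array couples of opposite dye order had nearly equal ratios. The median absolute difference between the log2 ratios of the 10 genes was 0.101 for arrays 1 and 2, 0.150 for arrays 3 and 4, 0.184 for arrays 5 and 8, and 0.154 for arrays 6 and 7. Each of these is the smallest among the couples with the same array of RA in Cy5. Whether these couples share RNA is not stated in the sources used here. If they did, the low values of arrays 6 and 7 would come from 1 RA and 1 vehicle sample.

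No member passed the test of all 30367 probes. limma was fitted on pair means, and the largest p over all 24 pairings was kept. At an unadjusted p under 0.01 it called 0 of the 10 genes, against 3.25% of all probes (988) and 4.31% of named genes, 0.792% lower and 3.52% higher with RA. After Benjamini-Hochberg adjustment 0 probes (0%) passed 0.05, with 3291 at an unadjusted p under 0.05 and a lowest adjusted p of 0.222. Since the genes were chosen by this contrast, nothing is read from the count. The log2 fold changes over 8 arrays lay between -0.40 for *Sostdc1* and -0.05 for *Clic6*, with standard deviations from 0.48 (*Slc4a5*) to 2.82 (*Ttr*), each larger than the size of its mean.

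Leaving out arrays 6 and 7 turned the direction of the median log2 fold change of the 10 genes, from -0.18 to 0.31. *Ttr* (1.23), *Aqp1* (0.37), *Kcnj13* (0.34) and *Kl* (0.29) then had an unadjusted p under 0.01, all higher with RA, as did 2.54% of named genes. None of the 4 passed after adjustment in limma (adjusted p from 0.476 to 0.493), and as the arrays left out are those by which the genes were picked, these counts are no support for a higher level. Within the first row of the slide (arrays 1 to 4) the median was 0.23, and 5 of the 10 genes had an unadjusted p under 0.01, *Otx2* with a lower level (-0.33), against 2.99% of named genes. In limma *Ttr* (adjusted p 0.037) and *Kcnj13* (adjusted p 0.048) also passed 0.05 after adjustment there. This fit rests on 4 arrays and also leaves out arrays 6 and 7, so it is no support for a higher level either. Within the second row, which holds arrays 6 and 7 beside 5 and 8, the median was -0.49. Without arrays 8 and 5 only *Otx2* had such a p (-0.58), against 2.11% of named genes.

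**Figure D3:**
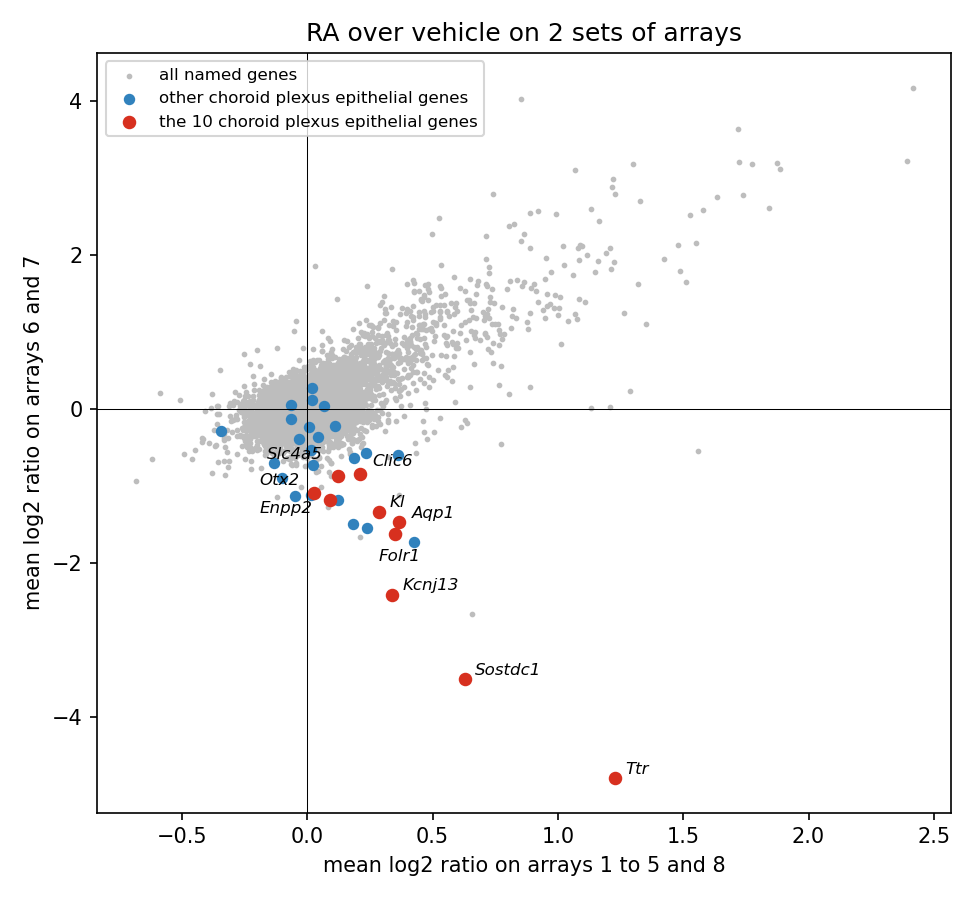
Mean log2 ratio of RA over vehicle on arrays 6 and 7 (vertical axis) against that on the other 6 arrays (horizontal axis) for all named genes (grey), 23 other choroid plexus epithelial genes (blue) and the 10 genes (red). *Ttr*, *Sostdc1* and *Kcnj13* lie lowest among the red points, with all red points below 0 vertically.

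The 10 genes had similar profiles over all 8 arrays and less similar ones without arrays 6 and 7. Pearson's r between pairs of them had a median of 0.967 over 8 arrays (range 0.651 to 0.995, 45 pairs). Over the other 6 arrays it had a median of 0.324 and ran from -0.801 to 0.949. The pairs share their arrays, so these values describe the arrays and carry no test. *Sostdc1* and *Ttr* had r = 0.991 over 8 and 0.816 over 6 arrays, whereas *Kcnj13* and *Ttr* had 0.968 and -0.04.

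Genes outside the 10 with the most similar pattern were sought among 568 genes that were above background on all arrays and spanned at least 1 on the log2 scale. The measure was Pearson's r with the mean of the 10 genes over 8 arrays. The closest was *Kcne2*, a potassium channel subunit of this epithelium (r = 0.99, and 0.84 without arrays 6 and 7). Its log2 ratio was -1.47 and -1.97 on arrays 6 and 7 and between 0.19 and 0.65 elsewhere. Next came *Cdh3*, P-cadherin (0.98, and 0.45 without those arrays), *Csap1* (0.98 and 0.90) and *Crygs* (0.96 and 0.90). The rest of the first 12 were *Trpv4*, *Cox8b*, *Scgb1c1*, *Ace*, *Itgb6*, *Nrn1l*, *Lpal2* and *C8h11orf87*, with r from 0.93 down to 0.86. Without arrays 6 and 7 the r of these 8 ran from 0.13 (*Scgb1c1*) and 0.44 (*Cox8b*) to 0.83, so that the likeness of *Scgb1c1*, *Cox8b* and *Cdh3* rests mainly on those 2 arrays.

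The wider tissue was described with gene lists. Of 26 further choroid plexus epithelial genes 23 had a named probe, and 0 of these passed in either direction at an unadjusted p under 0.01. Their median log2 ratio was -0.53 on array 6 and -0.56 on array 7. The other arrays had medians from -0.01 to 0.16. On both arrays 19 of the 23 were below 0 (29.7% of named genes) and 11 were below -0.5 (0.567% of named genes). The vehicle level on arrays 6 and 7 was above all other vehicle levels for 15 of them, among them *Kcne2*, *Trpv4*, *Cdh3* and *Ace*, against 6.18% of named genes. By at least 0.25 this held for 10 of the 23, against 0.917% of named genes. The 2 brightest of the list were nearer to 0 than *Ttr*. *Htr2c*, a serotonin receptor of this epithelium and of neurons, had -0.73 and -0.66 on arrays 6 and 7 and -0.35 to 0.05 elsewhere. *Slc29a4*, a monoamine transporter, had 0.15 and -0.05.

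The transporters that secrete cerebrospinal fluid but are also widespread in brain had medians nearer to 0 on arrays 6 and 7. Of 21 such genes, 1 passed at an unadjusted p under 0.01 with a lower level, *Slc4a4* at -0.28 ± 0.07 (SE), and 0 with a higher one. Their median was -0.04 on array 6 and -0.14 on array 7, and 1 of the 21, the potassium channel gene *Kcna1*, had its highest vehicle levels on both arrays. The brightest probe of the list, that of *Atp1b1*, a subunit of the sodium pump, gave log2 ratios of -0.04 and -0.74 there. Thyroid hormone and retinol carriers other than *Ttr* (11 genes) had medians of 0.01 and -0.04, and 0 passed. *Rbp4*, the retinol-binding protein that *Ttr* carries, had -0.16 and -0.05 on arrays 6 and 7 and its lowest values, -0.68 and -0.90, on arrays 5 and 8.

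Markers of other cells and neighbouring regions also varied over the arrays. Of 12 listed thalamic and habenular genes 7 had a named probe, and their median was lowest on arrays 6 and 7. The other arrays had medians from -0.16 to 0.64. All 7 were below 0 on both arrays 6 and 7 (29.7% of named genes), but 0 of the 7 were below -0.5 on both (0.567% of named genes). For 14 genes of the leptomeninges and choroid stroma the median was -0.04 and 0.04 on arrays 6 and 7, with 0 of them highest in vehicle there, but 0.37 and 0.44 on arrays 3 and 4 and -0.59 and -0.64 on arrays 5 and 8. *Col1a2*, a collagen of fibroblasts, followed this with 0.44 and 0.51, then -1.03 and -0.85. Red blood cell genes (7 genes) had 0.64 and 0.41 on arrays 3 and 4, -0.73 and -0.64 on arrays 5 and 8, and 0.13 and -0.01 on arrays 6 and 7. For 11 ependymal genes the medians on arrays 6 and 7 were -0.05 and -0.23, and 4 of the 11 (*Foxj1*, *Tmem212*, *Dynlrb2* and *Enkur*) had their highest vehicle levels on both arrays, against 6.18% of named genes. By at least 0.25 this held for 0 of the 11, against 0.917% of named genes. For 10 oligodendrocyte genes the medians were -0.18 and 0.06, of which *Opalin* (-0.27) and *Ermn* (-0.30) passed the unadjusted threshold with a lower level. *Slc4a4*, *Kcna1*, *Foxj1*, *Tmem212*, *Enkur*, *Opalin* and *Ermn* are named because they passed or stood out, after their values were seen. For 11 tanycyte genes the medians on arrays 6 and 7 were 0.12 and -0.02, for 10 endothelial genes 0.04 and 0.02, for 10 pituitary genes -0.002 and 0.04 and for 8 genes of retinal pigment epithelium, a tissue outside the block, -0.04 and -0.10, and 0 of each passed. The vehicle levels of arrays 6 and 7 were highest for 2 of the 8 retinal pigment epithelium genes, for 1 each of the oligodendrocyte, pituitary and thalamic lists (10, 10 and 7 genes), and for 0 of the tanycyte, endothelial, red blood cell and neuropeptide genes. Their part in the values of the 10 genes was not tested. Of 20 hypothalamic neuropeptide genes 19 had a named probe, and each of the 19 exceeded background clearly in at least 1 channel of every array, with medians of 0.07 and 0.09 on arrays 6 and 7. The medians were 0.29 and 0.24 on arrays 1 and 2 and -0.34 and -0.26 on arrays 5 and 8. At the unadjusted threshold 1 of the 19 passed with a lower level and 0 with a higher one.

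**Figure D4:**
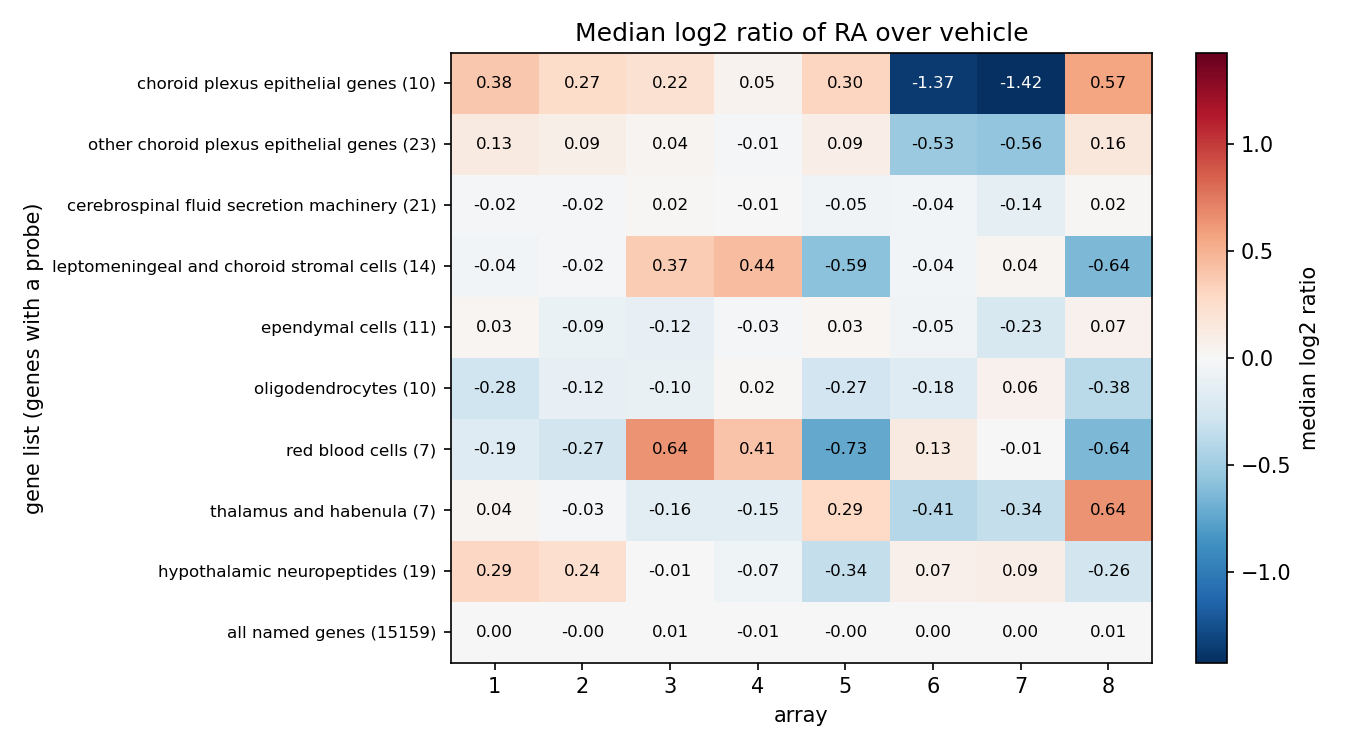
Median log2 ratio of RA over vehicle of each gene list (rows, with the number of genes that have a probe) on arrays 1 to 8 (columns), from blue (lower with RA) to red (higher with RA). The 2 choroid plexus lists are lowest on arrays 6 and 7, while leptomeningeal and red blood cell genes are lowest on arrays 5 and 8.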

How the data were processed

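The authors deposited the scanner output of 8 two-colour Agilent arrays, holding for every spot the median Cy3 and Cy5 intensity (linear) and a log10 ratio, beside a series table of log2 ratios after normalisation. Their methods name limma and loess, treat dye-swaps as a block and do not mention correcting for background.

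The values were reprocessed in limma 3.58.1 under R 4.3.3. The normexp method with offset 50 removed background, outlier spots (0.913% to 2.42% per array) were left out, loess was applied within arrays, spots of a probe were averaged, and ratios were turned to RA over vehicle. Sample levels were taken after Aquantile scaling. Each probe was tested on 4 pair means under all 24 pairings, keeping the largest p. Names came from RefSeq genes of GRCr8 (18006 of 30367 probes, 59.3%), with the brightest probe per gene. No gene coordinates were taken, as the arrays were designed on another build. The number of arrays limits the precision. The test was checked on simulated data. The genes and lists were chosen with earlier results of these data known. The text names the 10 genes, up to 3 of the brightest genes of each list and the 12 most similar genes.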

Additional observations from a re-analysis of the deposited data

Results flagged for a closer look

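Within each dye order, 1 array of the 4 lay far from the other 3 in 15 of 62 groups searched, in 12 of 22 groups of log2 ratios and 3 of 40 groups of levels. Chance marks about 1 in 20 groups, but the groups are not independent and the genes were picked for ratios far below 0 on single arrays, so the 12 groups of ratios, all marked on arrays 6 and 7, follow from that choice. On array 6 these were the ratios of *Ttr* (-4.48), *Kcnj13* (-2.61), *Kl* (-1.38), *Aqp1* (-1.35) and *Enpp2* (-1.17). On array 7 they were *Ttr* (-5.11), *Kcnj13* (-2.21), *Clic6* (-0.78), *Kl* (-1.27), *Aqp1* (-1.57) and *Enpp2* (-1.20), and the median of the 10 genes (-1.42). The level of *Otx2* in RA samples was far above the other arrays of its dye order on array 8 (9.65) and array 5 (10.1), and the level of *Slc4a5* in vehicle on array 7 (7.19).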

How the results depend on the processing

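The number of probes called at an unadjusted p under 0.01, 988, depended on the processing. It was 237 after plain background subtraction, 330 with Agilent's log ratio, 2481 with 8 independent arrays and a dye term, 1722 with a random block for arrays taken to share RNA and a dye term, 3142 with the pairing that gives the most calls, 2161 with only RA in Cy5, 2317 with only RA in Cy3 and 3111 with the slide row as a block. Leaving out 1 array of each dye order gave 455 to 1111, with the lowest value without arrays 8 and 5, and 603 without arrays 6 and 7. The count among the 10 genes was 5 within the first slide row and 0 to 4 on leaving out arrays, highest without arrays 6 and 7. The cause was not tested. The median log2 fold change of the 10 genes (-0.18) ran from -0.38 to 0.31 over the 16 couples left out, below 0 in 14, and was -0.08 after scaling between arrays. Without background correction the median vehicle difference was 1.25 on array 6 and 1.28 on array 7. Averaging all probes of a gene alters nothing, as each had 1 probe. *Kl* and *Slc4a5* dropped out where only bright probes were kept.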

Other observations

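The vehicle samples of arrays 6 and 7 were also high in genes of other kinds. Among the 40 named genes with the largest gap between these 2 vehicle levels and all other vehicle levels, 8 were among the 10 choroid plexus epithelial genes, 6 were other listed genes of this epithelium and 26 were neither. The genes named next were chosen after their values were seen. *Cd68*, a lysosomal protein of macrophages and microglia, had vehicle levels of 9.69 and 9.61 on arrays 6 and 7 and of 8.24 to 8.53 on the others. *Cxcl13*, a chemokine, had 9.03 and 9.08 against 6.46 to 7.31, and complement *C3* had 12.5 on both against 10.1 to 11.1. Their ratios on arrays 6 and 7 were mixed. *Cd68* had log2 ratios of 1.51 and 1.65 and *Cxcl13* 2.23 and 2.04, whereas *C3* had 0.15 and 0.23, its lowest, against 0.59 to 1.07 elsewhere. *Trem2* (-0.40 and -0.35), *Cxcl10* (-0.30 and -0.77) and *Orm1* (-1.84 and -1.38) were below 0 there. *Trem2* was lower still on arrays 3 and 4 (-1.16 and -1.44). *Glycam1*, first of the 40, had vehicle levels of 9.57 and 9.87 against 6.28 to 7.32, and log2 ratios of -2.60 and -2.73 on arrays 6 and 7 but 1.65 and 2.03 on arrays 5 and 8.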
